A study of Mus musculus with 12 samples.

Results

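Introns end at an acceptor, an AG preceded by a stretch rich in pyrimidines and, further upstream, by the branch point. SF3B1 is the largest subunit of the SF3b complex of the U2 snRNP, which binds the branch point and thereby sets which AG is used. Substitutions such as K700E are known for the use of AGs a short way upstream of the usual acceptor. The regions described here are alternative acceptors that lie farther apart than that: splicing events in which 1 donor joins either of 2 acceptors over 30 nucleotides (nt) apart.

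Members were taken from the table of splicing events by their event type (alternative acceptor) and by a variable part over 30 nt, and 1711 of 19323 events met this rule. They made up 1711 of 3309 alternative acceptor events, and they lay in 1265 genes. RNA was taken from G1E-ER4, a murine proerythroblast line without GATA1 of its own, in which β-estradiol switches on a GATA1-ER fusion and with it erythroid differentiation. The 3 Sf3b1 K700E/+ libraries came from 1 CRISPR-edited clone and the 3 Sf3b1 +/+ libraries from 1 isogenic clone, all after 24 h of β-estradiol. A difference between genotypes is therefore also one between clones, and genotype and clone cannot be told apart. The study states, for its work on these cell lines as a whole, that experiments were independent, but the labels do not say so of these libraries, and the spread behind the p-values may be technical. Samples without estradiol were not analysed here.

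Poly(A) RNA was sequenced, and total gene counts ran from 38785471 to 50077827 per library. Of 8 erythroid markers, 7 lay above 150 CPM (counts scaled to the library total) in every library, and Gata1, the erythroid factor, was at 306 to 322 CPM in Sf3b1 K700E/+ and 152 to 177 CPM in Sf3b1 +/+ libraries. As the line carries a GATA1-ER fusion, the Gata1 count may come from it and does not by itself mark erythroid identity. The source of its difference between the clones was not tested. Hbb-bt, a beta globin gene, was at 22.9 to 59.3 CPM in Sf3b1 K700E/+ and 80.1 to 172 CPM in Sf3b1 +/+ libraries. Among markers of other blood cells, Elane and Cd3e had no read, Mpo was at most at 0.02 CPM, and Pf4 and Itga2b stayed under 3.02 CPM in both genotypes. Lyz2, the granulocyte and macrophage marker lysozyme, was at 4.28 to 11.2 CPM in Sf3b1 +/+ and at most 0.0219 CPM in Sf3b1 K700E/+ libraries and the part of these markers in the results below was not tested. The count of Sf3b1 itself did not pass the test (log2 fold change 0.01, SE 0.05, edgeR quasi-likelihood adjusted p = 0.858) and cannot check a point substitution.

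The use of the upstream acceptor was expressed as percent spliced in (PSI), here a fraction from 0 to 1. It is the share of the longer path, which includes the variable part, after each path's reads were divided by its length. A rise of PSI in Sf3b1 K700E/+ cells is read as relatively more use of the upstream acceptor, and a fall as more use of the downstream one. Reads wholly inside the variable part count toward the longer path, so PSI can also move without a change of acceptor. The distance between acceptors ran from 31 to 8844 nt, with a median of 118 nt, and was a multiple of 3 in 604 members. In 1097 members the event lay within coding sequence. All 3 splice sites were annotated in 991 members, the upstream acceptor alone was not annotated in 299, the downstream acceptor alone in 274, and 147 had other combinations.

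The bases at both acceptors are shown for the largest rises with an unannotated upstream acceptor and the largest falls, where both windows could be read, because these pairs carry the shifts described below. Each run holds 27 intronic and 3 exonic bases, 5′ to 3′ on the strand of the gene, with the AG of the acceptor in capitals. They were read from GENCODE M21 transcripts on GRCm38 after a match by gene and exact intron length, and their coordinates are of that build. Exosc5, with annotated acceptors, was added after its values were seen. The first 5 pairs are rises and the last 4 are falls.
Retreg2 upstream, chr1:75144334-75144363, plus strand: cctgctgagtgtgcccgagttgtgcAGata
Retreg2 downstream, chr1:75144365-75144394, plus strand: ctggctgagagctggctcaccttccAGatt
Psrc1 upstream, chr3:108384087-108384116, plus strand: ttccctaatataacggactagtttcAGgga
Psrc1 downstream, chr3:108384209-108384238, plus strand: acctgaggtaggcatgttttctttcAGgtc
Ecpas upstream, chr4:58834710-58834739, minus strand: gggcattatcctaacaagttatttcAGtgt
Ecpas downstream, chr4:58834657-58834686, minus strand: acagtgctgtcacattgttaaattcAGagc
Use1 upstream, chr8:71367147-71367176, plus strand: gaaataaaactctacttccgtcccaAGcgt
Use1 downstream, chr8:71367208-71367237, plus strand: actcaggcacttccgcccttttctaAGatg
Exosc5 upstream, chr7:25664221-25664250, plus strand: actgaggctgacagccccttcctgaAGtct
Exosc5 downstream, chr7:25664300-25664329, plus strand: gagcctgaccgcttcccgtctccccAGgcg
Eci2 upstream, chr13:34993326-34993355, minus strand: tcagaaatccgcctgcctctgttgtAGatg
Eci2 downstream, chr13:34993228-34993257, minus strand: ggaacaaacagaaaccactatttgtAGtgt
Ssrp1 upstream, chr2:85040238-85040267, plus strand: gcgatgtgacaggctctttccttacAGgac
Ssrp1 downstream, chr2:85040316-85040345, plus strand: taagcaatgtgtcccagtgtaccacAGgca
Mosmo upstream, chr7:120730450-120730479, plus strand: aatgttgtgttttggtttgttttacAGtga
Mosmo downstream, chr7:120732476-120732505, plus strand: gaaaacccagtgtttgggctcatacAGgaa
Fam91a1 upstream, chr15:58442805-58442834, plus strand: ctttatcttacctatttgtggttatAGcat
Fam91a1 downstream, chr15:58443134-58443163, plus strand: ttcatgtgttattcatctttccaatAGggt

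To ask how the genotypes differ in the choice between distant acceptors, 1546 members were tested, and 165 fell under the minimum of 10 reads for the sum of the paths in each library. PSI rose in 36 members (2.33% of those tested) and fell in 83 (5.37%) in Sf3b1 K700E/+ cells. Over all 17475 tested events of any type, 1.93% were called as rises, 3.5% as falls and 5.43% in either direction. A call needed an adjusted p under 0.05 in edgeR's quasi-likelihood test and a PSI difference over 0.10 in size. In this fit the share of rises was thus close to the background and that of falls above it, without a test of that difference. The rises lay in 32 genes and the falls in 72, besides 1 fall to which no gene was assigned. The median PSI difference was -0.0087 over the tested members and -0.0095 over all tested events. Leaving out the 1159 members that the table marks as complex, together with those marked for single nucleotide polymorphisms, left 489 tested members with 18 rises and 11 falls, so that falls were then fewer than rises (background then 2.18% and 2.05%). There the share of rises was above the background and that of falls close to it, again without a test.

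**Figure D1:**
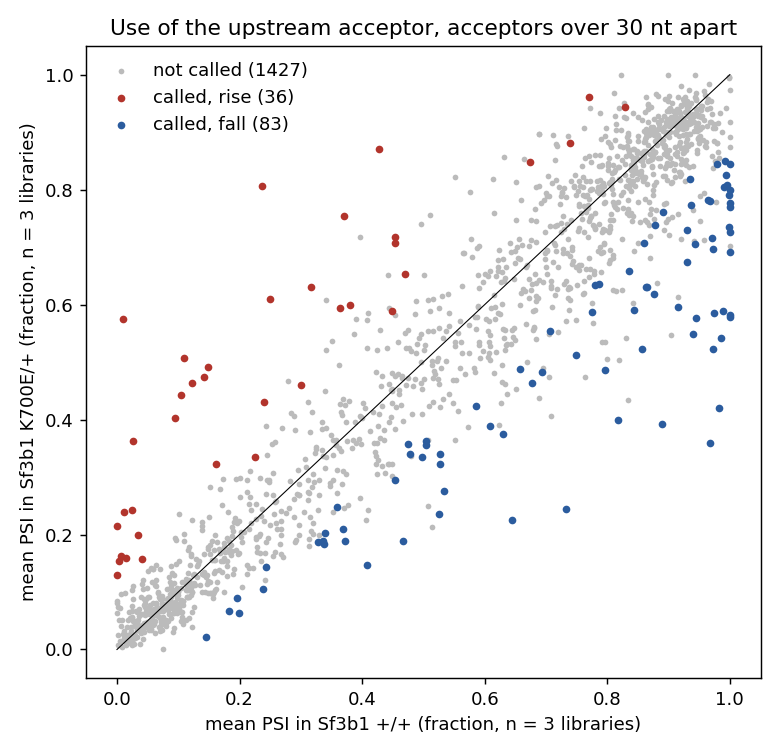
Mean PSI of each tested member in Sf3b1 +/+ (horizontal axis) and Sf3b1 K700E/+ cells (vertical axis), each the mean of 3 libraries, with the line of equal PSI. The 36 rises (red) lie above the line and the 83 falls (blue) below it, and 17 of the falls start from a PSI over 0.98 in Sf3b1 +/+ cells.

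Among the rises, the largest were in Retreg2, Aurkb, Ankhd1, Scaf1 and Cdc37l1, followed by Abcc5, Psrc1, Exosc5, Jmjd4 and Prr14. Aurkb encodes Aurora kinase B, the catalytic subunit of the chromosomal passenger complex in mitosis. Its acceptors lie 59 nt apart at chr11:68938552-68938611 (GRCm39, plus strand), both annotated and outside coding sequence. PSI was 0.567, 0.586 and 0.571 in the Sf3b1 K700E/+ libraries and 0.00355, 0.00999 and 0.016 in the Sf3b1 +/+ libraries. The upstream acceptor was thus nearly unused in Sf3b1 +/+ cells, with 4 to 16 reads per library, against 800 to 885 reads in Sf3b1 K700E/+ cells. The difference was 0.565 (0.575 ± 0.0101 against 0.00983 ± 0.00621, SD, n = 3, edgeR adjusted p = 2.74e-15).

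Retreg2, a reticulon-like protein of the endoplasmic reticulum, gained an unannotated acceptor 31 nt upstream of the annotated one, within coding sequence (chr1:75121005-75121036, GRCm39). PSI was 0.805, 0.816 and 0.8 in Sf3b1 K700E/+ and 0.23, 0.118 and 0.362 in Sf3b1 +/+ libraries. The mutant libraries lay close together and the wild-type ones were spread out, with 10 to 15 reads of the upstream acceptor each. The difference was 0.57 (edgeR adjusted p = 5.84e-07), and 0.116 when all reads of the longer path were counted (adjusted p = 0.0229).

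Exosc5, a core subunit of the RNA exosome, shifted toward an annotated acceptor 79 nt upstream within coding sequence (chr7:25363673-25363752, GRCm39). PSI was 0.378, 0.351 and 0.36 in Sf3b1 K700E/+ and 0.0403, 0.0232 and 0.0137 in Sf3b1 +/+ libraries, without overlap (difference 0.337, edgeR adjusted p = 1.55e-11). Psrc1, a microtubule-associated protein of the mitotic spindle, held 3 of the rises, from 2 donors and 2 upstream acceptors that join 1 downstream acceptor. Its 128-nt event went from 0.123 ± 0.0184 in Sf3b1 +/+ to 0.463 ± 0.0363 in Sf3b1 K700E/+ cells (SD, n = 3). Its unannotated acceptor 122 nt upstream, printed above, went from 0.0948 ± 0.0142 to 0.403 ± 0.0554. In both events most longer-path reads lay inside the variable part. On reads over the exon boundaries alone, the 128-nt event went from 0.0176 to 0.256 and the 122-nt event from 0.00599 to 0.162.

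Jmjd4, a hydroxylase of a translation release factor, rose from 0.317 ± 0.0993 to 0.631 ± 0.0114 (SD, n = 3, 86 nt). Prr14, which ties heterochromatin to the nuclear lamina, rose from 0.453 ± 0.0415 to 0.717 ± 0.0593 (201 nt), and by 0.564 on reads over the exon boundaries alone. In Cdc37l1, a relative of the HSP90 cochaperone Cdc37, an unannotated acceptor 164 nt upstream rose from 0.371 ± 0.0672 to 0.753 ± 0.0869, and from 0.199 to 0.704 on boundary reads. Ankhd1, which encodes an ankyrin repeat protein, rose from 0.427 ± 0.0337 to 0.87 ± 0.0439 at acceptors 48 nt apart. Abcc5, an ATP-binding cassette transporter, rose by 0.361 (37 nt), but its Sf3b1 +/+ libraries held only 12 to 14 reads, and the call was lost without Sf3b1 K700E/+ replicate 3 (edgeR adjusted p = 0.0516), Sf3b1 +/+ replicate 2 (0.133) or Sf3b1 +/+ replicate 3 (0.0708). On all reads of the longer path the Abcc5 difference was 0.113 and not called (adjusted p = 0.493).

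Smaller rises included acceptors hardly seen in Sf3b1 +/+ cells. In 7 rises, with the large one of Aurkb among them, PSI was under 0.02 there, and in 6 of these the upstream acceptor was not annotated. In Ecpas, a proteasome adaptor, the unannotated acceptor 53 nt upstream stood at 0.209, 0.0998 and 0.152 in Sf3b1 K700E/+ and at 0, 0 and 0.0118 in Sf3b1 +/+ libraries. Use1, a SNARE protein of the endoplasmic reticulum, had 0.148, 0.111 and 0.219 against 0, 0 and 0.0432 for an acceptor 61 nt upstream. A count of 0 allows a PSI of up to 0.00768 and 0.00906 in the Ecpas libraries and 0.061 and 0.0723 in the Use1 libraries. The call of Use1 was lost without Sf3b1 K700E/+ replicate 3 (edgeR adjusted p = 0.0791) and without Sf3b1 +/+ replicates 1 (0.0801) or 2 (0.0892). In both genes the genotypes did not overlap, and the annotated acceptor still took most reads in the mutant cells.

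**Figure D2:**
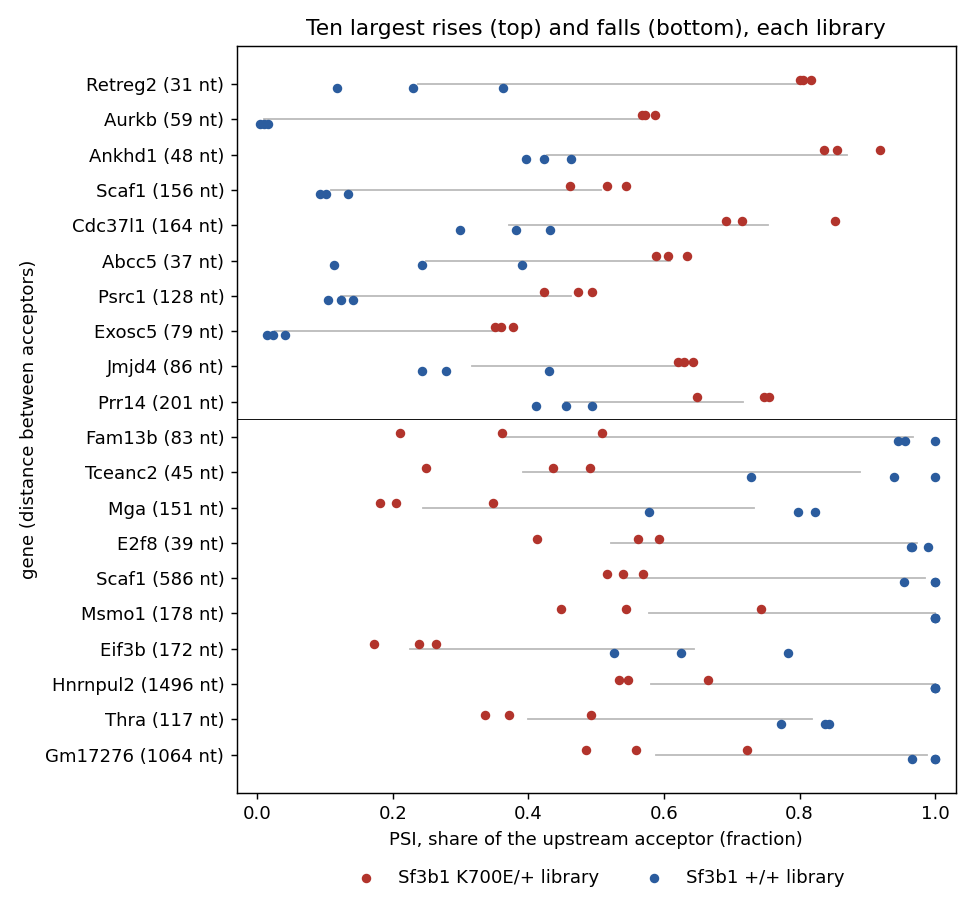
PSI in each library for the 10 largest rises (top) and the 10 largest falls (bottom), 1 event per gene in each direction, with Sf3b1 K700E/+ libraries in red, Sf3b1 +/+ libraries in blue and a line between the means. The genotypes do not overlap in any of them, which the choice required. Aurkb and Exosc5 start near 0 in Sf3b1 +/+ cells, and Scaf1 (586 nt), Msmo1, Hnrnpul2 and Gm17276 start near 1.

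Among the falls, where the downstream acceptor gained, the 10 largest were in Fam13b, Tceanc2, Mga, E2f8, Scaf1, Msmo1, Eif3b, Hnrnpul2, Thra and Gm17276. Those in Fam13b, Tceanc2, Scaf1, Msmo1, Eif3b, Hnrnpul2 and Gm17276 had too few reads over the exon boundaries to be tested on these alone. E2f8, an atypical E2F repressor of cell cycle genes, gained an unannotated acceptor 39 nt downstream, in coding sequence (chr7:48518000-48518039, GRCm39, minus strand). PSI was 0.562, 0.593 and 0.412 in Sf3b1 K700E/+ and 0.99, 0.964 and 0.966 in Sf3b1 +/+ libraries. Reads of the downstream acceptor numbered 105 to 120 per mutant library and 1 to 4 per wild-type library, and the distance is a multiple of 3. The difference was -0.451 (edgeR adjusted p = 9.42e-09).

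Fam13b had the largest fall, from 0.967 ± 0.029 to 0.36 ± 0.149 (SD, n = 3) at annotated acceptors 83 nt apart. Its 3 mutant libraries held 10 to 32 reads and ranged from 0.21 to 0.508. On all reads of the longer path the fall was -0.327 in place of -0.608. Mga, a partner of MAX that represses MYC targets, fell from 0.733 ± 0.135 to 0.244 ± 0.09 for an unannotated acceptor 151 nt downstream. Thra, the thyroid hormone receptor alpha, fell from 0.818 ± 0.0393 to 0.4 ± 0.0821 at annotated acceptors 117 nt apart.

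In Msmo1, a C4-methylsterol oxidase of cholesterol synthesis, and in Hnrnpul2, an RNA-binding protein, no Sf3b1 +/+ library held a read of the downstream acceptor. Their mutant libraries held 3 to 6 such reads in Msmo1 and 1 or 2 in Hnrnpul2, so the PSI differences of -0.422 and -0.419 rest on few reads. On the length-divided scale of PSI, a count of 0 allows a downstream share of up to 0.185 to 0.226 in the Msmo1 libraries and 0.165 to 0.247 in the Hnrnpul2 libraries, for counting error only. The predicted gene Gm17276 fell by 0.4 on 9 to 16 downstream reads per mutant library. Of the longer-path reads of its Sf3b1 +/+ libraries, 234 of 246, 407 of 445 and 455 of 475 lay wholly inside the variable part. In Hnrnpul2 these were 269 of 293, 196 of 216 and 330 of 360. Tceanc2, an elongation factor-like protein, fell by 0.497 and lost its call without Sf3b1 +/+ replicate 3 (edgeR adjusted p = 0.0503). Eif3b, a subunit of the translation initiation factor eIF3, fell by 0.419 and lost its call without Sf3b1 K700E/+ replicate 2 (adjusted p = 0.0598) or 3 (0.0978) and without Sf3b1 +/+ replicate 2 (0.117) or 3 (0.0891). All 12, 13 and 12 longer-path reads of Eif3b in the Sf3b1 +/+ libraries lay inside the variable part. Its PSI there therefore does not show use of the upstream acceptor.

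The other falls with printed acceptors were of a smaller size. In Eci2, a peroxisomal enoyl-CoA isomerase, PSI was 0.19, 0.178 and 0.2 in Sf3b1 K700E/+ and 0.623, 0.384 and 0.392 in Sf3b1 +/+ libraries (98 nt). Mosmo, a modulator of Smoothened, had 0.633, 0.604 and 0.616 against 0.82, 1 and 0.811 for an unannotated acceptor 2026 nt downstream. Fam91a1, an adaptor of golgin vesicles, had 0.389, 0.308 and 0.43 against 0.509, 0.664 and 0.717 (329 nt). In all 3 the genotypes did not overlap, and none was called on boundary reads, with an edgeR adjusted p of 0.0516 for Eci2, 0.0656 for Mosmo and 0.494 for Fam91a1, whose difference was then -0.114. The call of Eci2 was also lost without Sf3b1 K700E/+ replicate 2 or Sf3b1 +/+ replicate 1 (adjusted p = 0.0697 for each), and that of Fam91a1 without Sf3b1 K700E/+ replicate 2 (0.0747) or Sf3b1 +/+ replicate 3 (0.0745). The same acceptors of Eci2 from another donor kept their call on boundary reads (difference -0.247).

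In 2 genes, 1 unannotated acceptor gained share against a neighbour on either side, and so appears both as a rise and as a fall. In Retreg2 the acceptor at position 75121005 of chromosome 1 (GRCm39) is the upstream site of the 31-nt event and the downstream site of a 57-nt event. In the latter, PSI was 0.827, 0.808 and 0.791 in Sf3b1 K700E/+ and 1, 0.995 and 0.992 in Sf3b1 +/+ libraries. In Scaf1, an SR-related protein that binds RNA polymerase II, the acceptor at position 44663173 of chromosome 7 rose from 0.109 ± 0.0222 to 0.507 ± 0.0415 against a site 156 nt downstream. On reads over the exon boundaries alone it rose from 0.00498 to 0.303. Against a site 586 nt upstream, PSI fell from 0.985 ± 0.0263 to 0.541 ± 0.027, that is toward the same acceptor. In that event 189 of 195, 199 of 207 and 199 of 207 longer-path reads of the Sf3b1 +/+ libraries lay inside the variable part. The 119 calls come down to 109 distinct acceptors that gained share, and 36 of these were the sole unannotated site of their event. Share here is PSI with reads inside the variable part counted, so not each gain shows a shift between acceptors. On boundary reads alone, 35 of the 36 rises were called, and 40 of the 69 falls that could be tested.

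Distance and annotation were then set side by side, as a description with no test across events. Of acceptors 10 to 30 nt apart, 23.1% of 572 tested events rose and 3.5% fell, and of those under 10 nt apart 0.129% of 776 rose and 0.902% fell. Among the members, rises made up 4.56% at 31 to 50 nt, 2.72% at 51 to 100 nt, 3.86% at over 100 to 200 nt and 0.329% over 200 nt. Falls made up 2.11%, 4.62%, 7.02% and 6.58% in the same classes. Falls thus outnumbered rises in each class over 50 nt. Among calls not marked as complex this was not so, with 8 rises and 1 fall up to 50 nt, 7 and 7 up to 100 nt, 3 and 3 up to 200 nt and 0 and 1 beyond. On boundary reads, over 200 nt, 7 members rose and 16 fell. At the limit of the rule, 1 of 19 tested events rose at 30 nt (median PSI difference 0.0167) and 1 of 15 at 31 nt (0.0031).

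Where only the upstream acceptor was unannotated, 47.5% of 200 tested events rose at 10 to 30 nt, 12.1% of 58 at 31 to 50 nt, 4.08% of 49 at 51 to 100 nt, 10.4% of 48 at over 100 to 200 nt and none of 118 over 200 nt. The 5 rises at over 100 to 200 nt were 3 in Scaf1, 1 in Psrc1 and 1 in Cdc37l1. Where only the downstream acceptor was unannotated, falls prevailed, with 27 of 245 tested members (11%) against 4 rises. At 10 to 30 nt, 13 of 85 such events fell (15.3%) and 3 rose. Median PSI in Sf3b1 +/+ cells was 0.889 over these members, and 0.107 over those whose upstream acceptor alone was unannotated. Most PSI values thus had little room to rise where the downstream acceptor was unannotated, and little room to fall where the upstream one was. Among members with all sites annotated, 17 of 932 rose and 42 fell, and 27 of these falls lay over 200 nt apart. Of the 17 falls that started from a PSI over 0.98, 12 led to an unannotated downstream acceptor. Events were assembled from these same libraries. An unannotated acceptor hardly used in Sf3b1 +/+ cells thus entered mainly through its reads in Sf3b1 K700E/+ cells. The direction of change by annotation is therefore partly set in advance.

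**Figure D3:**
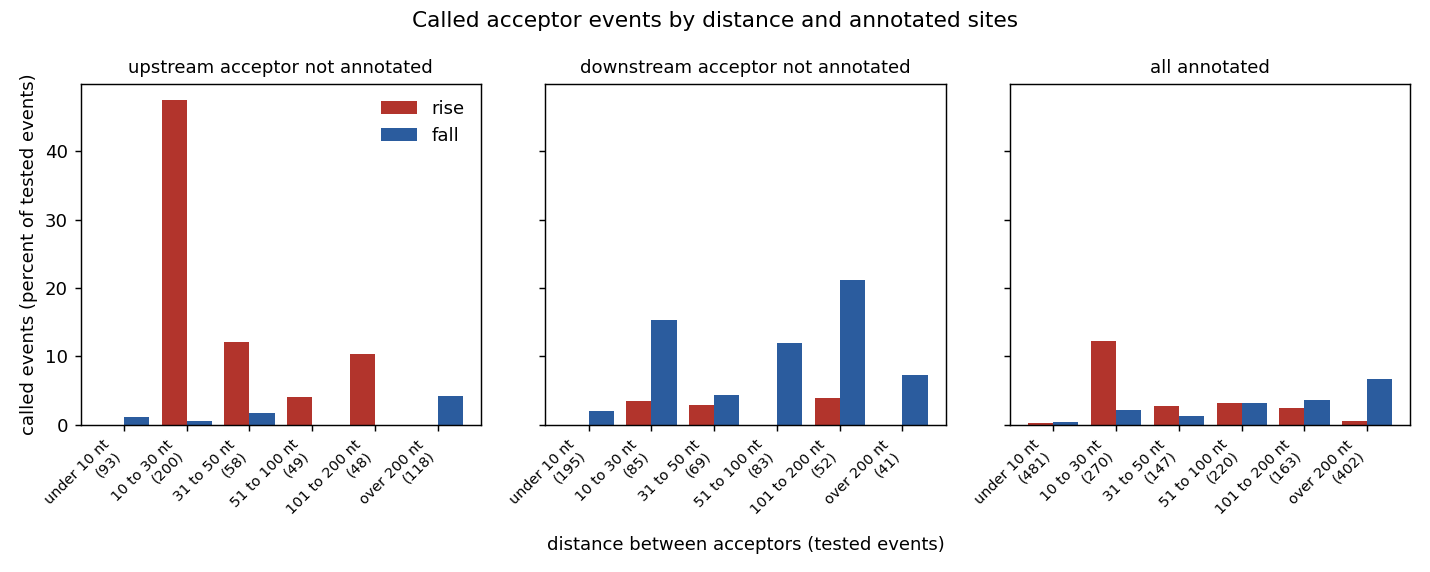
Percent of tested alternative acceptor events called as rises (red) or falls (blue) by distance between the acceptors, in panels by which acceptor is not annotated, with the number of tested events in parentheses. Bars for unannotated upstream acceptors peak at 47.5% for 10 to 30 nt and are lower at each distance over 30 nt. Unannotated downstream acceptors show falls at 15.3% for 10 to 30 nt and at 4.35% to 21.2% over 30 nt.

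The length of the variable part leaves the reading frame unchanged when it is a multiple of 3. This was so in 15 of 36 rises and 26 of 83 falls, and in 543 of 1546 tested members. Distances are the length of the variable part in the table, which differed from the spacing of the acceptor positions by up to 7 nt in 7 of the falls and in none of the rises. By that spacing, 27 falls were multiples of 3. Within coding sequence lay 22 of the rises and 60 of the falls, of 1025 tested members. Rises had a median distance of 60 nt and falls one of 194 nt.

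Reads of each path were also divided by the library's total of gene counts, to see which path moved. Among the rises, the longer path rose more than 2-fold in 23 of 36 and the shorter path fell more than 2-fold in 15. Among the falls, the shorter path rose more than 2-fold in 46 of 83, and the longer path fell more than 2-fold in 21. A path had no read in 1 genotype in 2 rises (longer path) and 8 falls (shorter path), for which no fold is given. The median log2 change of the path that gained was 1.54 in rises and 1.28 in falls, and that of the other path was -0.80 and -0.46.

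**Figure D4:**
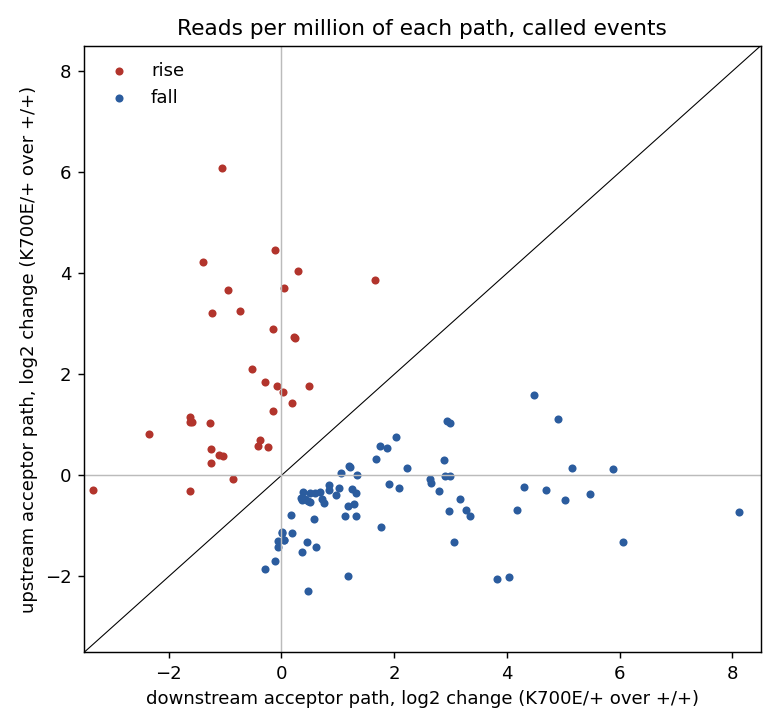
Log2 change, Sf3b1 K700E/+ over Sf3b1 +/+, of the reads, divided by the library's total gene count, of the downstream acceptor path (horizontal axis) and of the upstream acceptor path (vertical axis) in 109 called events, with 10 left out that had no read of a path in 1 genotype. Rises (red) lie above and falls (blue) below the line of equal change, and the path that gained moved by more than the other in the median of both groups.

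Long variable parts collect reads that lie wholly inside them, and such reads also come from transcripts that keep the intron. These inside reads made up a median of 92.7% of the longer path in the 40 falls over 200 nt, 62.9% in the 20 falls of over 100 to 200 nt and 10.8% in the 17 falls of 51 to 100 nt. Among the rises their median was 70.4% in the 11 of over 100 to 200 nt and 59.8% in the 2 over 200 nt. On reads over the exon boundaries alone, 46 members rose and 48 fell of 1250 tested (background 2.36% and 2.83%). Both shares were then above the background, without a test. Of the 36 rises, 35 were called again in the same direction. Of the 83 falls, 69 could be tested, 68 kept their sign and 40 were called, but over 200 nt only 11 of 33.

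**Figure D5:**
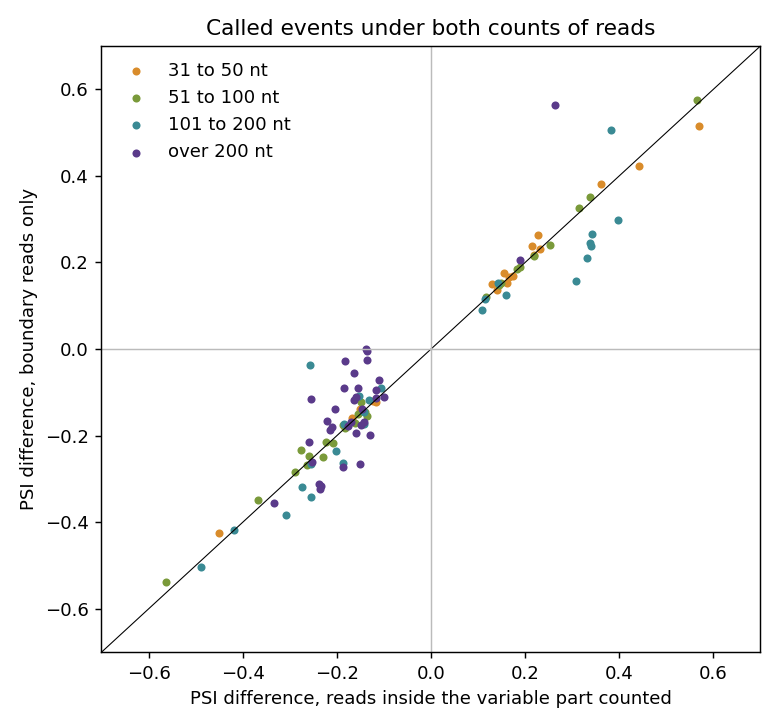
PSI difference of 105 called events with inside reads counted (horizontal axis) and on boundary reads alone (vertical axis), coloured by distance, with the line of equality. Events up to 100 nt lie near the line, while falls over 200 nt scatter and 1 of them crosses 0.

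Retention of the same intron was then read from the table's own retention events, which share reads with the members. Of 397 tested members with a testable retention event from their donor to the downstream acceptor, retention was called lower in Sf3b1 K700E/+ cells beside 33 and higher beside none. Beside the 24 falls that had such an event, retention was called lower in 21, with a median PSI difference of -0.24. Over 200 nt this held for all 11 falls with such an event. Beside the 6 rises with such an event, it was called in none. Of 402 tested members with a testable retention event up to the upstream acceptor, retention was called lower beside 33 and higher beside 1. The order was the other way round there, with retention called lower beside 4 of the 5 rises and 2 of the 26 falls. The spliced path of each retention event is a junction that also defines a path of the member. Both contrasts are therefore partly set by how rises and falls were chosen. The part of retained introns in these calls was not tested.

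Lists of genes fell as follows, with most members uncalled. Over all 1172 genes with a tested member, 2.73% had a rise and 6.14% a fall, against which the counts of each list are to be read. Of the DNA repair genes, 84 held a tested member, 2 had a rise and 2 a fall, and the median PSI difference over the list's 110 tested members was -0.0077. Ssrp1, a subunit of the histone chaperone FACT, had the clearest fall. An unannotated acceptor 78 nt downstream, in frame and within coding sequence (chr2:84870609-84870687, GRCm39), was joined by 246, 214 and 196 reads in Sf3b1 K700E/+ libraries. In Sf3b1 +/+ libraries it was joined by 1, 1 and 0 reads. PSI was 0.737, 0.721 and 0.746 against 0.999, 0.999 and 1 (difference -0.264, edgeR adjusted p = 1.66e-14).

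Zmynd8, a chromatin reader recruited to DNA breaks, rose from 0.381 ± 0.0612 to 0.599 ± 0.0466 (75 nt, in frame, edgeR adjusted p = 0.0036). The call was lost with limma, at an adjusted p of 0.09. Rev1, a translesion polymerase, fell by 0.163 (580 nt) and lost its call without Sf3b1 K700E/+ replicate 3 (edgeR adjusted p = 0.0645) and on boundary reads (0.176). Recql4, a RecQ helicase, rose by 0.174 (46 nt) at an edgeR adjusted p of 0.0449, and kept its call among the 6 libraries left out in turn only without Sf3b1 K700E/+ replicate 1. The adjusted p without each of the others was 0.171 and 0.144 for Sf3b1 K700E/+ replicates 2 and 3, and 0.17, 0.0965 and 0.0678 for Sf3b1 +/+ replicates 1, 2 and 3. On all reads of the longer path the Recql4 difference was 0.0953 (adjusted p = 0.202).

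Of the mRNA splicing genes, 22 held a tested member, none rose and 3 fell (median -0.0151 over 31 members). All 3 encode proteins of or near the U1 snRNP, which recognises donors. Luc7l2 used an unannotated downstream acceptor (variable part of 155 nt by the table, acceptor positions 153 nt apart), with PSI of 0.531, 0.592 and 0.632 in Sf3b1 K700E/+ and 1, 0.92 and 1 in Sf3b1 +/+ libraries (edgeR adjusted p = 0.000144; difference -0.388, and -0.251 on all reads of the longer path). Prpf39 fell by 0.11 (463 nt), and the call was lost without Sf3b1 K700E/+ replicate 1 (edgeR adjusted p = 0.2) and without Sf3b1 +/+ replicates 2 (0.0816) or 3 (0.122). Luc7l fell by 0.118 (1060 nt) and kept its call only without Sf3b1 K700E/+ replicate 2, with an edgeR adjusted p of 0.067 to 0.251 without each of the others. Neither was called on boundary reads.

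Of the genes of heme, iron and iron-sulfur clusters, 8 held a tested member, none rose and 2 fell (median -0.006 over 13 members). Slc40a1 encodes ferroportin, the cellular iron exporter, and its event at annotated acceptors 81 nt apart fell from 0.504 ± 0.0657 to 0.355 ± 0.0545 (edgeR adjusted p = 0.0436). The call was lost without Sf3b1 K700E/+ replicates 1 (adjusted p = 0.19) or 2 (0.117) and without Sf3b1 +/+ replicates 2 (0.0654) or 3 (0.241). Nubp2, an assembly factor of cytosolic iron-sulfur proteins, fell by 0.146 and 0.15 in 2 overlapping events of 1079 and 1062 nt. Both lost their calls without Sf3b1 K700E/+ replicates 1 or 3 or Sf3b1 +/+ replicate 3, with an edgeR adjusted p of 0.0717 to 0.187. On boundary reads the 1062-nt event fell by 0.265 (adjusted p = 0.00735) and the 1079-nt event was not called (adjusted p = 0.338).

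Among mouse orthologs of genes described as targets of mutant SF3B1 in human cells, 10 held a tested member (21 events, median -0.0425). Abcc5 and Ankhd1 had a rise, and Ankhd1 also a fall, at an unannotated acceptor 33 nt downstream in another of its introns, from 0.994 ± 0.0108 to 0.826 ± 0.0427 (SD, n = 3). Among events assigned to a single gene, no tested member was called in the 5 genes of the acceptor recognition list. The same held for the 4 of nonsense-mediated decay and the 11 of erythroid regulators and red cell proteins. An event assigned jointly to Gm49396 and U2af1l4, which is on the acceptor recognition list, was called as a fall (392 nt, difference -0.17, edgeR adjusted p = 0.0294). With 1 library left out it kept its call only without Sf3b1 K700E/+ replicate 1, and it was not called on boundary reads (adjusted p = 0.0613).

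Gene counts, which the rule did not use, were compared for the same genes. Of 1145 genes with a tested member that passed the filter on low counts, 18 were higher and 29 lower in Sf3b1 K700E/+ cells (4.1%), at an adjusted p under 0.05 and an absolute log2 fold change over 1. Over all 12547 tested genes, 4.07% were higher, 6.24% lower and 10.3% called in all. Among the 32 tested genes of rises and 69 of falls, the median log2 fold change was -0.13 and -0.17. Only 4 of these genes were called, and they are named here because they are so few, with their values in view. From here on, CPM values were also scaled by TMM factors. Acp5, the tartrate-resistant acid phosphatase, rose from 66.6 ± 3.46 to 149 ± 10.3 CPM (SD, n = 3) and Wdr62, a mitotic scaffold protein, from 42.7 ± 4.69 to 85.5 ± 1.29 CPM. Cyb561a3, a lysosomal reductase, fell from 28.7 ± 4.52 to 13.6 ± 2.21 CPM, and Rbak, a zinc finger protein, from 57.8 ± 3.88 to 20.3 ± 1.64 CPM. In single libraries left out, the log2 fold change of Wdr62 lay between 0.96 and 1.10 and that of Cyb561a3 between -1.20 and -0.96, so both crossed the limit of 1.

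None of the 28 genes of the named events was called. A call also needed a log2 fold change over 1 in size, so this does not mean that expression was unchanged. The largest changes among them were -0.83 in Zmynd8 (SE 0.06), 0.72 in Msmo1 (SE 0.08) and 0.71 in E2f8 (SE 0.07), all on the log2 scale. Their edgeR adjusted p was 1.68e-05, 0.000154 and 5.59e-05, while that of Aurkb was 0.306 and that of Retreg2 0.206. Aurkb stood at 244 ± 13.9 CPM in Sf3b1 K700E/+ and 229.5 ± 10.0 CPM in Sf3b1 +/+ cells, beside a PSI difference of 0.565. Exosc5 fell by 0.54 on the log2 scale (SE 0.06) and Ssrp1 by 0.42 (SE 0.07). No gene of the acceptor recognition list was called, with log2 fold changes from -0.24 in Puf60 to 0.66 in Zrsr1 (SE 0.15), and U2af1l4 did not pass the filter.

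The letters before the AG were counted over the 18 bases upstream of it, as a description. The pyrimidine share had a median of 72.2% over 478 upstream windows and 1018 downstream windows of tested members. In rises, the upstream acceptor, which gained, had a median of 63.9% pyrimidine (12 windows, 50% to 77.8%), and in falls the downstream acceptor, which gained, had 61.1% (54 windows, 44.4% to 88.9%). The acceptor that lost had 69.4% in rises (24 windows) and 72.2% in falls (34 windows). Adenine took a median of 22.2% of these bases in the 12 gained upstream acceptors, against 11.1% in all upstream windows. Annotation moved with this share. Over all tested members, unannotated downstream acceptors had a median of 66.7% pyrimidine (216 windows), and those of falls 61.1% (24 windows). Where all sites were annotated, the downstream acceptor of falls had 72.2% (28 windows), as over all such members. These windows cover only acceptors that lie within an exon of another transcript.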

How the data were processed

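RNA-seq of 6 libraries was analysed. The authors used STAR 2.7.9 on GRCm39, and each gene's deposited value is a raw count. They assembled splicing events with KisSplice and KisSplice2refgenome and deposited packed read counts of both paths and a PSI fraction per library. PSI was recomputed here: per read file (2 per library) the longer path is 2 times the lower boundary count, plus inside reads, minus reads over both boundaries, divided by 66 plus the variable length, and the shorter path is divided by 66 (75-base reads, 5 bases of overlap). This count gave 100% of 9857 deposited PSI fractions of the members within 0.01, against 28.6% for a count of all reads. Path counts were fitted in edgeR 4.0.16 (R 4.3.3) with terms for library, path and the interaction of path with genotype, over all events that had 10 reads or more in each library. KissDE, the study's tool, was not run. Gene counts were fitted with TMM and filterByExpr. Both used quasi-likelihood tests and Benjamini-Hochberg adjustment. DESeq2 1.42.0 and limma 3.58.1 were alternatives.

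On simulated data (dispersion 0.02), 65.7% of events moved by a PSI of 0.2 and 97.9% of those moved by 0.4 were called, with 8 false calls among 17078 events. For genes (dispersion 0.01), 98% of 3-fold and 100% of 8-fold changes were called, with 1 false call among 12379 genes. Both simulations drew events or genes independently at a set dispersion, so their false calls do not give the rate in these data. Median depth was 135 reads per library over both paths of a tested member. Replicates differed more than sampling gives (chi-square per degree of freedom 5.42 to 15), so none is a copy. Deviations of same-numbered libraries correlated over genes (0.63, 0.48 and 0.48), in every pair, so the numbers pair the libraries there, and less over events (0.14, 0.06 and 0.07). The fits given have no block, and the block is an alternative.

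Named events are the 10 largest rises and 10 largest falls, 1 per gene, with the genotypes fully separated, and all other called members in a gene list. Members assigned jointly to more than 1 gene were not matched to the lists. Acceptor windows were matched by gene and exact intron length to GENCODE M21 (GRCm38); 478 of 480 upstream and 1018 of 1020 downstream windows held AG. Distances equal to the variable length were required for printing. The members and lists were chosen with earlier results of these data known, and the DNA repair list is the study's. The authors' own comparisons were not used.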

Additional observations from a re-analysis of the deposited data

How the results depend on the processing

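Of the 36 rises and 83 falls among the tested members, the counts stayed within 1.5 times when all reads were counted, at coverage minimums of 5 and 20 reads, with 1 event per pair of acceptors and when each library was left out (30 to 36 rises, 58 to 75 falls). They moved further with limma on logit PSI (21 and 37), with a PSI difference over 0.20 (20 and 43) and without complex, paralog and SNP events (18 and 11). Falls also moved with DESeq2 (45, against 26 rises) and on boundary reads only (48, against 46 rises). Without marked events only 489 members were tested. The cause of the other moves was not tested. Leaving out 1 library ended the call of 11 rises and 41 falls. The replicate block on the path terms gave 43 rises and 99 falls, keeping all 36 and all 83; same-numbered libraries did not correlate over 0.1 in every pair over events. Among genes with a tested member, the block gave 17 higher and 28 lower (18 and 29 without it), and leaving out libraries gave 16 to 21 higher and 23 to 39 lower. No gene of a named event or of the acceptor recognition list changed its side of the expression threshold under any alternative, while Wdr62 and Cyb561a3 did, and no named event changed direction where it could be tested (23 of 31 on boundary reads, 26 at 20 reads, 7 without marked events, 29 with 1 event per pair of acceptors). Of the 31 named events, 8 lost their call with DESeq2, 10 with limma, 5 of 23 on boundary reads and 2 with all reads. Depth limits events with under 20 reads per library, and the outlier check was not applied to groups of 3.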
